A study of Mus musculus with 16 samples.

Results

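The genes described here are 45 interferon-stimulated genes, whose RNA is made in response to type I interferon. They were taken from the 24116 rows of the deposited count table by symbol, from a list that leaves out the Oas, Irf, interferon-inducible GTPase and PYHIN genes. All 45 were found. Ifi44l had no count in any of the 16 libraries, and the other 44 passed the filter on low counts and were tested. The rule uses no measured value, but the members were chosen with earlier results of these data known. Counts of members beside shares of all genes are therefore descriptive. The filter lets a gene through when it is high in 1 group only, so the number that passed is no result.

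Type I interferon (interferon beta and the interferon alpha family) binds the receptor chains IFNAR1 and IFNAR2 on the cell surface. The kinases JAK1 and TYK2 then phosphorylate STAT proteins, among them STAT2, which join IRF9 to form a complex that enters the nucleus and binds a DNA motif named ISRE in front of interferon-stimulated genes. Many of the proteins made in this way block viral entry, translation or replication, others sense viral nucleic acid, and a few damp the signal. In the spleen, plasmacytoid dendritic cells are known as a strong source of type I interferon, and conventional dendritic cells use the signal to present antigen to T cells.

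RNA was measured in dendritic cells (DC) sorted from the spleen of mice, in 4 subsets that the labels name Dec205, pDC, Esamlo and Esamhi. Dec205 is a surface receptor of the cross-presenting conventional DC (cDC1), pDC stands for plasmacytoid DC, and Esam is an adhesion molecule that divides the remaining conventional DC (cDC2) into a low and a high fraction. Each subset was taken from the genotypes WT and CKO, the latter deficient in the transcription factor Etv6 per the series' design text, and each of the 8 groups has 2 libraries. The labels give no treatment, no strain, no age and no sex, and do not state which Cre driver or which exons the CKO involves or whether replicates are separate animals. The p-values therefore reflect how far the 2 libraries of a group lie apart, pooled over all 8 groups for each gene. This spread can be technical.

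The libraries held 14434287 to 20709265 counts. Levels are given in CPM, counts scaled to a common library size, and 3 counts, the upper limit that a count of 0 allows, corresponded to 0.143 to 0.228 CPM. Etv6 itself was lower in CKO in Dec205 (337 and 375 CPM in WT, 205 and 219 CPM in CKO) and near the WT level in pDC (346 and 352 CPM against 363 and 322 CPM). Since the deleted exons are not given and the counts cover the whole gene, these values do not check the genotype labels. Xist was at most 1.44 CPM in the 8 WT libraries and 114 to 355 CPM in the 8 CKO libraries, and the Y-linked Ddx3y ran the other way, so genotype and sex cannot be told apart in any comparison of CKO with WT below. The summed level of 10 cDC1 markers was 10026 to 12205 CPM in Dec205 and that of 10 pDC markers 14229 to 16554 CPM in pDC, and 8 cDC2 markers summed to 77.9 to 110.3 CPM in Dec205 and to 2291 to 2921 CPM in the Esamlo and Esamhi libraries. The pDC libraries also held 6763 to 7066 CPM of the cDC1 list and 1841 to 1938 CPM of the cDC2 list, so those lists alone do not set pDC apart.

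In WT cells most of the interferon-stimulated genes that differed between subsets were higher in Esamlo and Esamhi than in Dec205 or pDC. Compared between genes per kilobase of exon (RPKM), the median WT level of the 44 genes was 7.46 in Dec205 and 6.60 in pDC, against 14.3 in Esamlo and 16.5 in Esamhi. Dec205 and pDC each had 8 genes below 1 RPKM, while Esamlo had 1 and Esamhi had 2. The highest member was Ifitm3, a membrane protein that blocks virus entry, with 856 ± 3.30 RPKM (SD, n = 2) in Esamlo and 554 ± 72.9 RPKM in Esamhi. In Dec205 its neighbour Ifitm2 was highest with 252 ± 10.7 RPKM, and in pDC the mitochondrial protein gene Ifi27l2a with 226 ± 6.40 RPKM. The lowest member was Ddx60, a helicase of the RNA sensing pathway, in Dec205 (0.0699 and 0 RPKM) and pDC (0.160 and 0.170 RPKM), and Ifi44, a cytoplasmic protein with a poorly known role, in Esamlo (0.139 and 0.401 RPKM) and Esamhi (0.183 and 0.389 RPKM).

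Of the 44 tested members, 13 were higher and 13 lower in WT Dec205 than in WT pDC, where 25.2% of all 13790 tested genes were higher and 22.4% lower (47.6% in all). Calls rest on the quasi-likelihood test of edgeR at an adjusted p below 0.05 over all of these genes. Against Esamlo, 7 members were higher and 24 lower in Dec205, beside 16.1% and 18.2% of all tested genes (34.2% in all). Against Esamhi, 5 were higher and 28 lower, beside 17.9% and 19.5% (37.4% in all). The pDC libraries had 8 members higher and 27 lower than Esamlo, beside 20.2% and 25.4% of all tested genes (45.7% in all), and 9 higher and 28 lower than Esamhi, beside 21.4% and 25.7% (47.1% in all). Esamlo and Esamhi were closest to each other, with 2 members higher in Esamlo and 4 lower, beside 3.09% and 2.72% of all tested genes (5.81% in all).

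The largest of these WT differences concerned Rtp4, a chaperone of G protein-coupled receptors that also restrains viruses. It was at 0.759 and 0 CPM in Dec205 and 0.588 and 0.813 CPM in pDC, against 42.9 and 65.4 CPM in Esamlo and 63.5 and 83.6 CPM in Esamhi. The log2 difference was -7.20 (SE 0.58, edgeR adjusted p = 1.3e-06) for Dec205 against Esamlo, -7.65 (SE 0.58, 5.7e-07) against Esamhi, and -6.25 (SE 0.51, 6.1e-07) and -6.70 (SE 0.51, 2.8e-07) for pDC against the same 2 subsets. Between Dec205 and pDC the largest difference was that of Parp12, an ADP-ribosyltransferase that inhibits translation of viral RNA, with 131 and 162 CPM in Dec205 and 4.86 and 5.03 CPM in pDC (log2 difference 4.88, SE 0.37, edgeR adjusted p = 2.3e-07). Ifi44 differed most in the other direction, at 57.1 and 63.5 CPM in pDC and 2.35 and 3.99 CPM in Dec205 (log2 difference -4.24, SE 0.44, edgeR adjusted p = 5e-06). Isg20, an exonuclease that degrades RNA, was called between Esamlo (16.6 and 21.7 CPM) and Esamhi (35.8 and 41.0 CPM), with a log2 difference of -1.004 (SE 0.22, edgeR adjusted p = 0.019). The Esamlo and Esamhi WT means of Slfn1 (5.79 against 1.83 CPM) and Ddx60 (20.2 against 41.4 CPM) lay further apart as a ratio.

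**Figure D1:**
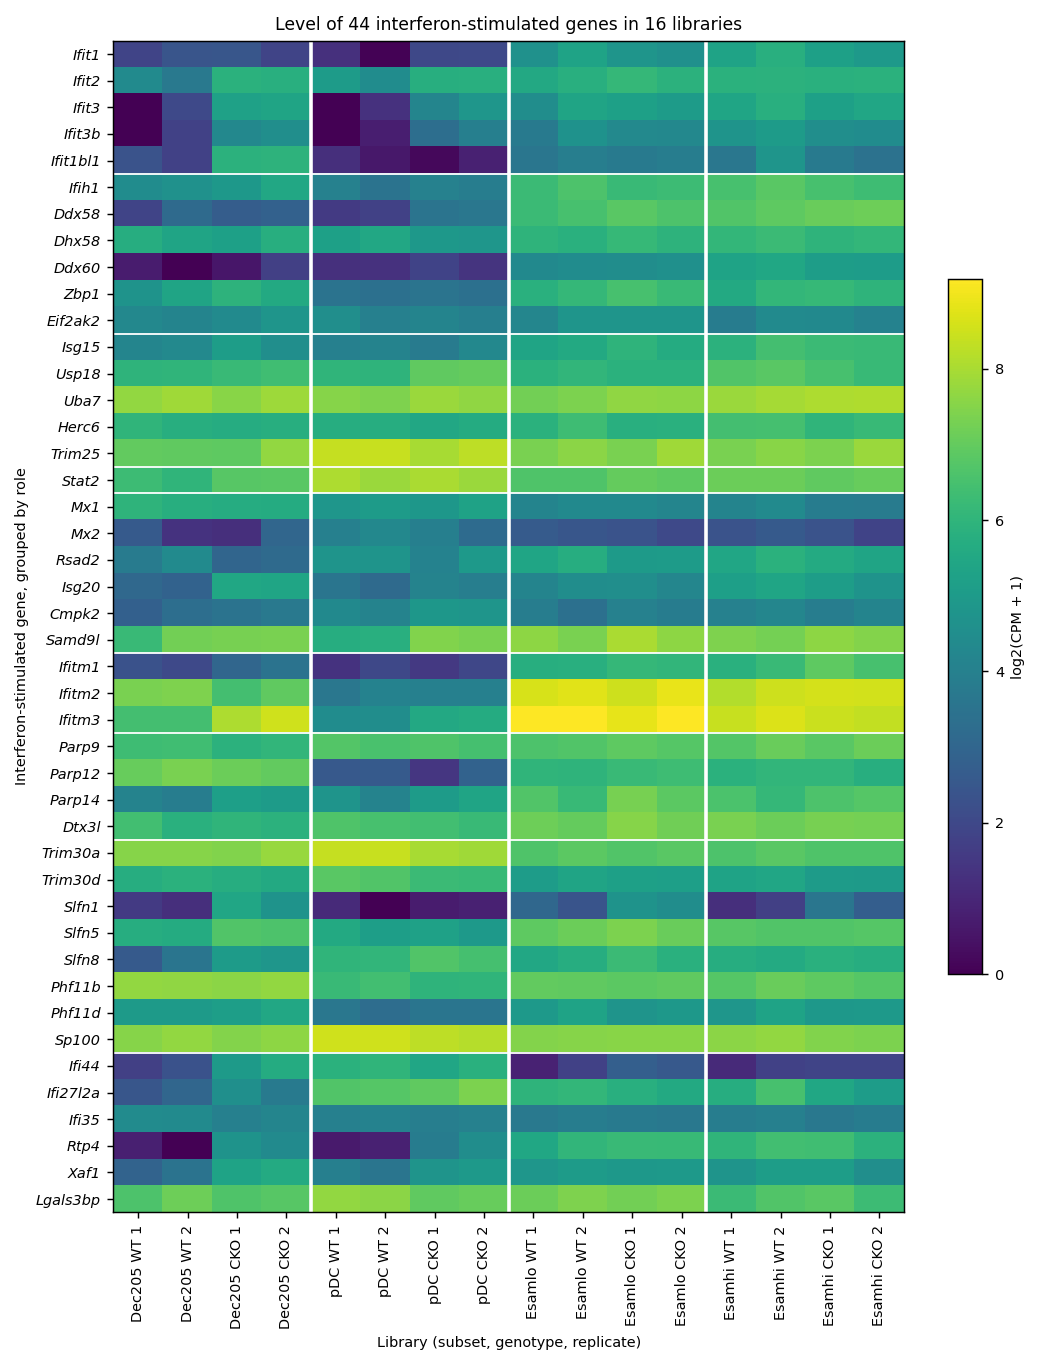
Level of the 44 detected interferon-stimulated genes (vertical axis, grouped by role) in each of the 16 libraries (horizontal axis, by subset, genotype and replicate), as log2(CPM + 1) on the colour scale. The dark cells for Ifit3, Ifit3b, Ifit1bl1, Slfn1 and Rtp4 in the WT Dec205 libraries are lighter in the CKO Dec205 libraries, whereas the Esamlo and Esamhi columns are bright for the IFITM genes in both genotypes.

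In Dec205, CKO cells had more RNA of a part of these genes, and for most of the rest the difference did not pass the test. Of the 44 members, 16 rose, 1 fell and 27 did not pass the test, where 3.44% of all tested genes rose and 3.34% fell (6.78% in all). The median log2 fold change of the members was 0.46, against 0 over all tested genes, and 30 of 44 were above 0. Both CKO libraries lay above both WT libraries in 24 of the 44 members and below them in 5, where 20.1% of all tested genes lay above and 21.1% below. In pDC, 8 members rose, 1 fell and 35 did not pass, where 1.47% of all tested genes rose and 0.377% fell (1.85% in all), and the median log2 fold change was 0.07 against 0.01 over all tested genes. Both pDC CKO libraries were above both WT libraries in 17 members and below them in 11, where 20.6% of all tested genes were above and 16.7% below. These are bulk samples of sorted cells, so that a higher level in each cell and a larger share of cells that express a gene cannot be told apart.

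No member passed the test in Esamlo or Esamhi. In Esamlo 0.457% of all tested genes rose and 0.0943% fell (0.551% in all), and in Esamhi 0.674% rose and 0.203% fell (0.877% in all). The same edgeR test gave 6 members in Esamlo and 8 in Esamhi at an unadjusted p under 0.05. Of all tested genes, 7.9% and 7.48% were under it. DESeq2 called 1 member higher in Esamlo (Ifi44, DESeq2 adjusted p = 0.012) and 0 in Esamhi. Over all genes DESeq2 called 256 in Esamlo and 301 in Esamhi, against 76 and 121 with edgeR. The median log2 fold change was 0.13 in Esamlo, with 29 members above 0, and -0.09 in Esamhi, with 16 above 0. In Esamlo both CKO libraries lay above both WT libraries in 18 members and below them in 7, beside 23.1% and 21.1% of all tested genes, and in Esamhi in 8 and 13, beside 22.4% and 21.8%. Summed over all members, the level was 2277 to 2443 CPM in WT and 2863 to 3244 CPM in CKO Dec205 libraries. It was 2766 to 2859 CPM in WT and 2828 to 2870 CPM in CKO pDC, 3641 to 3921 CPM in WT and 4058 to 4079 CPM in CKO Esamlo, and 3532 to 4082 CPM in WT and 3735 to 3866 CPM in CKO Esamhi. The genotypes did not overlap in Dec205 and Esamlo, and overlapped in pDC and Esamhi. The WT Dec205 sum was the lowest of the 4 subsets, and the CKO Dec205 sum stayed below that of every Esamlo and Esamhi library.

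Dec205 and pDC share no libraries, and 5 genes rose in both: Ifit2, Ifit3, Ifit3b, Rtp4 and Ifitm3. They are 31.25% of the 16 that rose in Dec205 and 62.5% of the 8 that rose in pDC. Of all tested genes 3.44% rose in Dec205 and 1.47% in pDC, and the share that rose in both is not given here. In all, 21 members were called in at least 1 subset and 23 in none. When the spread was estimated from the 4 libraries of the subset alone, 6 members rose in Dec205 (Ifi44, Ifit1bl1, Ifitm3, Isg20, Slfn1 and Xaf1) and 5 in pDC (Ddx58, Ifitm3, Rtp4, Samd9l and Usp18). Only Ifitm3 is in both of these lists. Shares of all genes called in at least 1 subset, or in these fits, are not given here. The counts in this paragraph are therefore descriptive only.

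**Figure D2:**
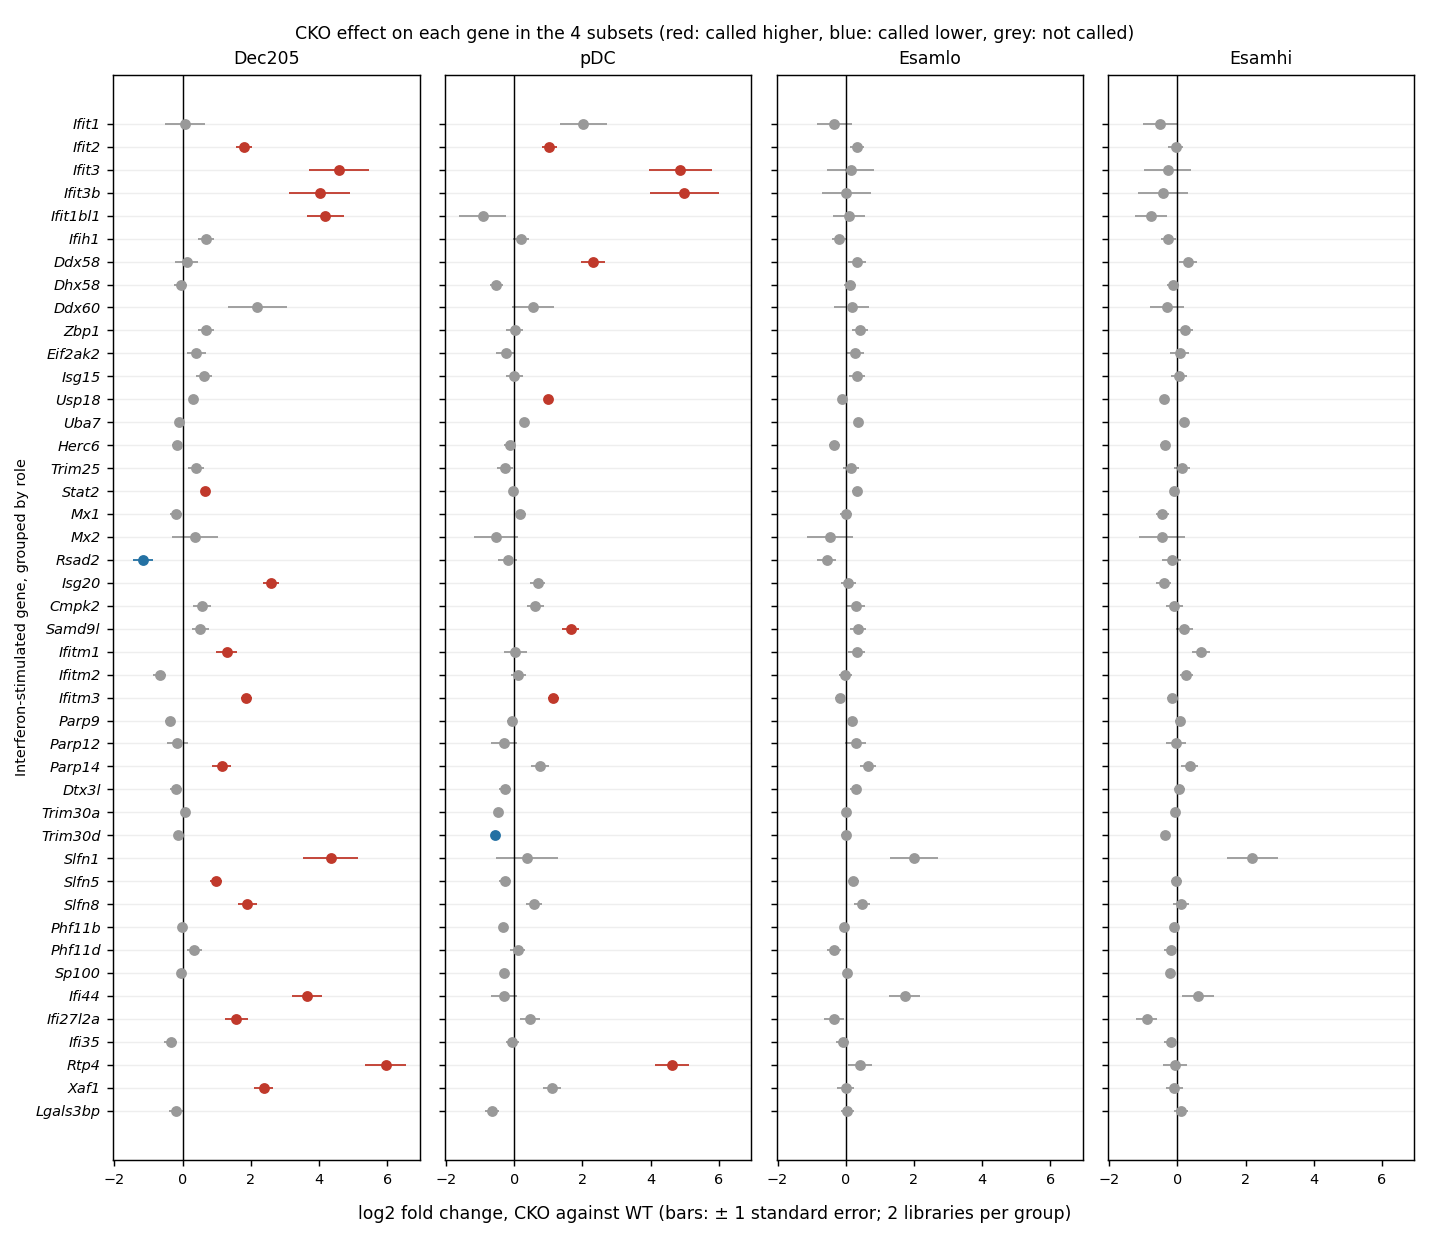
Log2 fold change of CKO against WT (horizontal axis) for each of the 44 tested genes (vertical axis, grouped by role) in the 4 subsets, with bars of ± 1 standard error and 2 libraries per group. Red points are called higher (16 in Dec205, 8 in pDC), blue points called lower (1 in each) and grey points not called, which includes all 44 for either Esam subset.

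The IFIT family proteins bind viral RNA that lacks the marks of host RNA and keep it from being translated. Their genes lie side by side in a stretch of 112 kb on chromosome 19 (chr19:34550550-34662981, GRCm38). Of the 5 members 4 rose in Dec205, 3 rose in pDC and 0 were called in Esamlo or Esamhi. The sequences of 250 bases upstream of the RefSeq start sites (GRCm38.p6, 5' to 3' on the gene's strand) are shown for Ifit3 (chr19:34583279-34583528, plus strand), Ifit3b (chr19:34607707-34607956, plus strand) and Ifit1bl1 (chr19:34601969-34602218, minus strand), since these had the largest rises among members that carry the ISRE letters there, which are GAAA, any 2 bases and GAAA on either strand. Ifit1 (chr19:34640639-34640888, plus strand), chosen after its values were seen, is shown beside them as the neighbour that did not rise in Dec205. Capitals mark the ISRE matches.
Ifit3: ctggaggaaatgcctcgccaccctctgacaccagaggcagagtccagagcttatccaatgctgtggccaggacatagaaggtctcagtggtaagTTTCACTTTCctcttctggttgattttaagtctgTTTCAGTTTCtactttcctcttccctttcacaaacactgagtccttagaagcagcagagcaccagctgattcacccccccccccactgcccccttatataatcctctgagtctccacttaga
Ifit3b: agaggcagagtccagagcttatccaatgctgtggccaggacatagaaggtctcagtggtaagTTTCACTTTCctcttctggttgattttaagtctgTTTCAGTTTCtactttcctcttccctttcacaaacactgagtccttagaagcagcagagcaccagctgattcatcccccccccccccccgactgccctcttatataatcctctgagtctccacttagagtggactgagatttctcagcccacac
Ifit1bl1: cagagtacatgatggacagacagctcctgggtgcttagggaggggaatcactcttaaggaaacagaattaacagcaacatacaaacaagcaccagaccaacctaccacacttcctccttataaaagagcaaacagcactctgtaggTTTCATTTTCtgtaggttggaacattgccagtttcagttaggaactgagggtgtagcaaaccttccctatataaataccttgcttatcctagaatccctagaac
Ifit1: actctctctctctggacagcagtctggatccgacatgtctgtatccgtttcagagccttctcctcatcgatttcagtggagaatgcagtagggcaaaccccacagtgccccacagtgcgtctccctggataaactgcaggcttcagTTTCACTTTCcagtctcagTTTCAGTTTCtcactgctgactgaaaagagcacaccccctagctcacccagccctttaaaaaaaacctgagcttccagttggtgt

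The matches begin 156 and 122 bases before the start site in Ifit3, 188 and 154 in Ifit3b, 104 in Ifit1bl1 and 104 and 85 in Ifit1. The transcripts of Ifit3 and Ifit3b share sequence: 51.2% of the 50-base stretches of Ifit3 and 45% of those of Ifit3b occur in another gene. How the authors' counting treated such reads is not given in the sources used here, so the split between Ifit3 and Ifit3b is uncertain.

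Ifit3 was at 0 and 3.11 CPM in the WT Dec205 libraries and at 37.4 and 40.7 CPM in CKO, a log2 fold change of 4.59 (SE 0.88, edgeR adjusted p = 0.0087). Ifit3b went from 0 and 2.43 CPM to 18.5 and 22.4 CPM (log2 fold change 4.02, SE 0.89, edgeR adjusted p = 0.018). In both, the CKO libraries lay well above either WT library, 1 of which held no count. The call of Ifit3b was lost when genes with low counts were also tested (edgeR adjusted p = 0.0606). In pDC the same 2 genes also rose from low levels, Ifit3 from 0 and 1.47 CPM to 17.0 and 27.4 CPM (log2 fold change 4.88, SE 0.93, edgeR adjusted p = 0.017) and Ifit3b from 0 and 0.711 CPM to 8.88 and 14.6 CPM (4.99, SE 1.00, adjusted p = 0.023). These pDC calls were lost without WT replicate 1 or CKO replicate 2, with edgeR adjusted p up to 0.0754 for Ifit3 and 0.0973 for Ifit3b, and when no filter was applied (0.0988 and 0.0937). In Esamlo and Esamhi both genes were already at 12.5 to 55.3 CPM in WT. The Esamlo CKO libraries lay within the WT range of each gene. In Esamhi, Ifit3 was at 41.5 and 55.3 CPM in WT and 36.8 and 42.4 CPM in CKO. Ifit3b was there at 25.7 and 31.9 CPM in WT and 22.2 and 21.0 CPM in CKO, both CKO libraries below both WT libraries. Neither gene was called in these subsets.

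Ifit2, which promotes death of infected cells besides binding RNA, was at 19.96 and 12.04 CPM in WT and 56.9 and 54.5 CPM in CKO in Dec205 (log2 fold change 1.80, SE 0.23, edgeR adjusted p = 0.00049). It was at 31.8 and 21.3 CPM in WT and 53.7 and 55.0 CPM in CKO in pDC (1.03, SE 0.22, adjusted p = 0.031). All CKO libraries of the 2 subsets thus lay between 53.7 and 56.9 CPM, close to the 46.1 to 59.3 CPM of the WT Esamlo and Esamhi libraries. The pDC call was lost without WT replicate 2 or either CKO replicate (edgeR adjusted p up to 0.251). Ifit1bl1, an Ifit1-like gene, went from 4.10 and 2.43 CPM to 58.2 and 60.3 CPM in Dec205 (log2 fold change 4.18, SE 0.54, edgeR adjusted p = 0.00053). That is above every other group, since the remaining 12 libraries lay between 0.159 and 26.8 CPM. In pDC it was at 1.34 and 0.508 CPM in WT and 0.159 and 0.804 CPM in CKO, and its CKO effect differed between Dec205 and pDC by 5.11 on the log2 scale (SE 0.86, edgeR adjusted p = 0.0083). Ifit1, which binds RNA whose cap lacks methylation, was at 2.66 and 4.33 CPM in WT and 4.56 and 2.72 CPM in CKO in Dec205, with overlapping groups (log2 fold change 0.07, SE 0.59, edgeR adjusted p = 0.99). Its pDC libraries held 1.44 and 0.0508 CPM in WT and 3.01 and 3.05 CPM in CKO, with the CKO libraries above the WT libraries (log2 fold change 2.03, SE 0.68, edgeR adjusted p = 0.25). It was called without WT replicate 1 (edgeR adjusted p = 0.0048) and by DESeq2 (adjusted p = 0.037).

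Of the 6 sensors of viral RNA and DNA, 0 passed the test in Dec205 and 1 rose in pDC. The count in Dec205 depends on the tool and on single libraries. DESeq2 called 3 higher, Ddx60 (DESeq2 adjusted p = 0.024), Ifih1 (0.044) and Zbp1 (0.048). Over all genes DESeq2 called 1701 in Dec205, where edgeR called 935. The edgeR test called Ddx60 higher without WT replicate 1, Ddx58 and Zbp1 without WT replicate 2, and Ddx60 and Ifih1 without CKO replicate 1 (adjusted p from 0.027 to 0.035). Their log2 fold changes ran from -0.06 to 2.19, and the highest, that of Ddx60, rested on 0.607 and 0 CPM in WT and 0.461 and 2.33 CPM in CKO (SE 0.87, edgeR adjusted p = 0.15). Ddx58, which encodes the RNA sensor RIG-I, rose in pDC from 1.98 and 2.44 CPM to 10.46 and 11.6 CPM (log2 fold change 2.31, SE 0.34, edgeR adjusted p = 0.0032). In Dec205 it was at 2.73 and 7.98 CPM in WT and 5.54 and 6.22 CPM in CKO, with the CKO libraries inside the WT range. The difference of the CKO effect between Dec205 and pDC was -2.20 (SE 0.48, edgeR adjusted p = 0.033), the only such difference among the members in which pDC had the larger effect and passed the test. WT Esamlo and Esamhi cells had 75.8 to 119 CPM of Ddx58, and their CKO libraries 96.5 to 141 CPM. Ifih1, the RNA sensor MDA5, was at 21.3 and 24.3 CPM in WT and 29.0 and 44.3 CPM in CKO Dec205 (edgeR adjusted p = 0.10), and Zbp1, a sensor of Z-form nucleic acid, at 25.4 and 40.6 CPM and 59.9 and 46.9 CPM (adjusted p = 0.099). Dhx58, a regulator of both RNA sensors, and Eif2ak2, the kinase PKR that shuts down translation, were not called in any subset.

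Isg15 is a small protein that is joined to other proteins like ubiquitin, Uba7 is the enzyme that activates it, Herc6 and Trim25 are ligases, and Usp18 removes it and also blocks the interferon receptor. None of these 5 was called in Dec205, Esamlo or Esamhi. Isg15 itself was at 17.0 and 19.2 CPM in WT and 33.4 and 22.5 CPM in CKO Dec205 (log2 fold change 0.63, SE 0.24, edgeR adjusted p = 0.15). Both CKO libraries were above both WT libraries, but the difference did not pass. Usp18 rose in pDC from 63.5 and 62.1 CPM to 121 and 129 CPM (log2 fold change 1.00, SE 0.12, edgeR adjusted p = 0.00092). In Dec205 it stood at 62.4 and 63.0 CPM in WT and 73.8 and 81.4 CPM in CKO (0.31, SE 0.12, adjusted p = 0.16), and in Esamhi at 102 and 114 CPM in WT and 91.3 and 73.0 CPM in CKO (-0.40, SE 0.12, adjusted p = 0.27). Its CKO effect differed among the 4 subsets (joint edgeR test, adjusted p = 0.0039).

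Stat2, the signal carrier that is itself interferon-stimulated, rose in Dec205 from 78.4 and 63.6 CPM to 110.2 and 115 CPM (log2 fold change 0.66, SE 0.12, edgeR adjusted p = 0.0067). The groups did not overlap, and the call was lost without WT replicate 2 (edgeR adjusted p = 0.0626). In pDC, Stat2 was at 264 and 224 CPM in WT and 259 and 221 CPM in CKO, the highest level among the subsets and with overlapping groups (log2 fold change -0.02).

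Of the 6 antiviral enzymes and GTPases, 1 rose and 1 fell in Dec205, and 1 rose in pDC. Isg20 rose in Dec205 from 7.67 and 6.36 CPM to 43.8 and 41.0 CPM (log2 fold change 2.60, SE 0.24, edgeR adjusted p = 3.9e-05). These CKO libraries reached or passed the WT Esamhi libraries, and in pDC the gene was at 10.8 and 8.03 CPM in WT and 16.1 and 14.3 CPM in CKO (0.69, SE 0.23, adjusted p = 0.24). The difference of the CKO effect between Dec205 and pDC passed the test (1.91, SE 0.33, edgeR adjusted p = 0.0091). Samd9l, a translation inhibitor, rose in pDC from 52.5 and 54.2 CPM to 175 and 162 CPM (log2 fold change 1.66, SE 0.25, edgeR adjusted p = 0.0033). In Dec205 its WT libraries lay apart from each other, at 73.2 and 149 CPM, and the CKO libraries were at 156 and 163 CPM (0.52, SE 0.24, adjusted p = 0.22). Without WT replicate 2, the higher of these, it was called there as well (log2 fold change 1.12, edgeR adjusted p = 0.0035).

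Rsad2, also named viperin, makes a nucleotide that ends viral RNA chains, and it was the member that fell in Dec205, from 13.1 and 20.1 CPM to 6.92 and 8.04 CPM (log2 fold change -1.15, SE 0.30, edgeR adjusted p = 0.036). The call was lost without WT replicate 2 or either CKO replicate (edgeR adjusted p up to 0.214), and both WT libraries were above both CKO libraries. Cmpk2, a mitochondrial nucleotide kinase gene next to it (chr12:26442743-26479837 holds the pair, GRCm38), was at 6.07 and 8.93 CPM in WT and 10.3 and 11.995 CPM in CKO Dec205, with the CKO libraries above the WT libraries (0.57, SE 0.26, adjusted p = 0.22). The antiviral GTPases Mx1 and Mx2 were not called in any subset. Mx1 was at 61.9 and 53.2 CPM in WT Dec205, the highest of the 4 subsets, and at 50.8 and 49.8 CPM in CKO. The upstream sequence of Rsad2 (chr12:26456453-26456702, minus strand) holds 1 ISRE match, 120 bases before the start site, and is shown because the gene fell while it carries the motif. That of Slfn8 (chr11:83020811-83021060, minus strand) holds 1 match, 48 bases before the start site, and completes the members that rose most and carry it.
Rsad2: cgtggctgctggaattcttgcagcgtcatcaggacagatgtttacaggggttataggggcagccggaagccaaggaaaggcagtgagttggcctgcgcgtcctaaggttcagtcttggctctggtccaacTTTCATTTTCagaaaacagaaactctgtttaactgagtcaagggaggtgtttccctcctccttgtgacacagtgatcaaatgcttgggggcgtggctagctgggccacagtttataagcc
Slfn8: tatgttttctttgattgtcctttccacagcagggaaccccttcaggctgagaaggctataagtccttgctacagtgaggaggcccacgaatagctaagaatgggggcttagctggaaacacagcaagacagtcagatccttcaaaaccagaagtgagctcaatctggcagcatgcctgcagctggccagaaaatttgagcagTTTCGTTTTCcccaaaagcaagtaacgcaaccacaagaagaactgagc

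The IFITM proteins sit in membranes and hinder the fusion of viruses with the cell. Their genes lie within chr7:140954837-141010744 (GRCm38), and 2 of 3 rose in Dec205. Ifitm3 was at 86.1 and 86.0 CPM in WT and 265 and 366 CPM in CKO Dec205 (log2 fold change 1.87, SE 0.15, edgeR adjusted p = 1.8e-05), and at 21.0 and 21.5 CPM in WT and 45.3 and 49.2 CPM in CKO pDC (1.15, SE 0.15, adjusted p = 0.0016). In Esamlo (582 and 579 CPM in WT, 460.2 and 568 CPM in CKO) and in Esamhi (341 and 411 CPM, 353 and 323 CPM) it was not called. Ifitm3 thus had the smallest adjusted p of all members in Dec205 and in the joint test of a difference among subsets (edgeR adjusted p = 0.00045). Ifitm1 rose in Dec205 at a low level, from 4.02 and 3.04 CPM to 7.18 and 10.2 CPM (log2 fold change 1.29, SE 0.31, edgeR adjusted p = 0.026), a call lost without WT replicate 2 or CKO replicate 2 (adjusted p up to 0.145). Ifitm2 lay just outside the threshold in the other direction, at 160.2 and 170.2 CPM in WT and 85.9 and 121 CPM in CKO Dec205 (-0.67, SE 0.19, adjusted p = 0.0505), and it was called lower without CKO replicate 2 (edgeR adjusted p = 0.0165). It shares 48.5% of its 50-base stretches with other genes and overlaps the gene model Gm45717 on its strand, so its counts are uncertain, while Ifitm3 shares 10% and Ifitm1 less.

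Parp9, Parp12 and Parp14 add ADP-ribose to proteins, and Dtx3l is the ubiquitin ligase that works with Parp9. Parp14 rose in Dec205 from 16.5 and 13.7 CPM to 35.0 and 31.6 CPM (log2 fold change 1.14, SE 0.26, edgeR adjusted p = 0.022), a call lost without WT replicate 2 or CKO replicate 1 (adjusted p up to 0.132). The other 3 were not called, with log2 fold changes in Dec205 of -0.37 for Parp9, -0.20 for Dtx3l and -0.15 for Parp12. In pDC, Parp12 was called lower without CKO replicate 2 (log2 fold change -1.50, edgeR adjusted p = 0.012). Parp14, Dtx3l and Parp9 are neighbours in chr16:35831892-35972621 (GRCm38), and the exons of Parp9 and Dtx3l overlap on opposite strands by 9.4% and 8% of their lengths, so a part of their reads cannot be told apart.

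The 8 members of the TRIM30, Schlafen and PHF11 families with Sp100 divided by family in Dec205. All 3 Schlafen genes rose, and they lie together in chr11:82951349-83122670 (GRCm38). Slfn1, known for a role in T cell quiescence, went from 1.97 and 1.35 CPM to 42.3 and 25.2 CPM (log2 fold change 4.34, SE 0.80, edgeR adjusted p = 0.0067). Slfn5 went from 52.4 and 49.1 CPM to 104 and 96.7 CPM (0.98, SE 0.16, adjusted p = 0.0032) and Slfn8 from 5.01 and 10.9 CPM to 32.0 and 27.6 CPM (1.90, SE 0.27, adjusted p = 0.0012). In each of the 3, both CKO libraries were above both WT libraries. Slfn1 was the member with the largest positive log2 fold change in Esamlo (7.33 and 4.25 CPM in WT, 25.1 and 21.7 CPM in CKO, 2.01, SE 0.70, edgeR adjusted p = 0.42) and in Esamhi (1.33 and 2.33 CPM, 11.3 and 5.69 CPM, 2.1996, SE 0.74, adjusted p = 0.36), without passing the test. In pDC it was at or below 1.12 CPM in all 4 libraries. Slfn8 shares 15.4% of its 50-base stretches with other genes, mainly Slfn9.

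Trim30d was the member that fell in pDC, from 114 and 103 CPM to 75.5 and 72.3 CPM (log2 fold change -0.56, SE 0.13, edgeR adjusted p = 0.043). That call was lost whichever of the 4 pDC libraries was left out (edgeR adjusted p up to 0.262). Its neighbour Trim30a, a negative regulator of Toll-like receptor signalling, was at 336 and 343 CPM in WT and 249.8 and 235 CPM in CKO pDC (-0.49, SE 0.11, adjusted p = 0.055) and was thus just outside. Neither was called in Dec205. Phf11b, Phf11d and Sp100, a nuclear body protein, were not called in any subset, and their log2 fold changes in Dec205 were -0.01, 0.35 and -0.05. In pDC, DESeq2 called Trim30a (DESeq2 adjusted p = 0.0018) and Sp100 (0.0095) lower. Sp100 was at 367 and 367 CPM in WT and 311 and 289 CPM in CKO pDC.

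Among the remaining 7 members, of which Ifi44l was not detected, 4 rose in Dec205 and 1 in pDC. Rtp4 had the largest fold change of all members in Dec205, from 0.759 and 0 CPM to 25.5 and 19.97 CPM (log2 fold change 5.95, SE 0.59, edgeR adjusted p = 6.6e-05), and rose in pDC from 0.588 and 0.813 CPM to 13.5 and 21.8 CPM (4.63, SE 0.51, adjusted p = 0.00045). Every CKO library of these subsets held far more than any WT library, and all stayed below the 42.9 to 83.6 CPM of WT Esamlo and Esamhi. Xaf1, a factor that promotes apoptosis, rose in Dec205 from 6.53 and 10.2 CPM to 39.6 and 47.7 CPM (2.38, SE 0.27, adjusted p = 0.00023). In pDC it lay just outside the threshold, at 14.8 and 10.9 CPM in WT and 25.8 and 29.6 CPM in CKO (1.11, SE 0.26, adjusted p = 0.052). Ifi44 rose in Dec205 from 2.35 and 3.99 CPM to 31.3 and 49.2 CPM (3.65, SE 0.44, adjusted p = 0.00031), toward the level of pDC, where it was at 57.1 and 63.5 CPM in WT and 42.2 and 55.6 CPM in CKO. Ifi27l2a rose in Dec205 from 4.55 and 7.24 CPM to 22.7 and 12.6 CPM (1.58, SE 0.34, adjusted p = 0.016), with CKO replicate 1 highest, and the call was lost without that library or WT replicate 1 (adjusted p up to 0.107). Ifi35, a signalling scaffold, and Lgals3bp, a secreted glycoprotein, were not called, with log2 fold changes of -0.35 and -0.19 in Dec205. In pDC, Lgals3bp was at 206 and 189 CPM in WT and 122 and 130 CPM in CKO (-0.65). DESeq2 called it lower there (DESeq2 adjusted p = 0.048), and so did edgeR on the pDC libraries alone (edgeR adjusted p = 0.042).

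**Figure D3:**
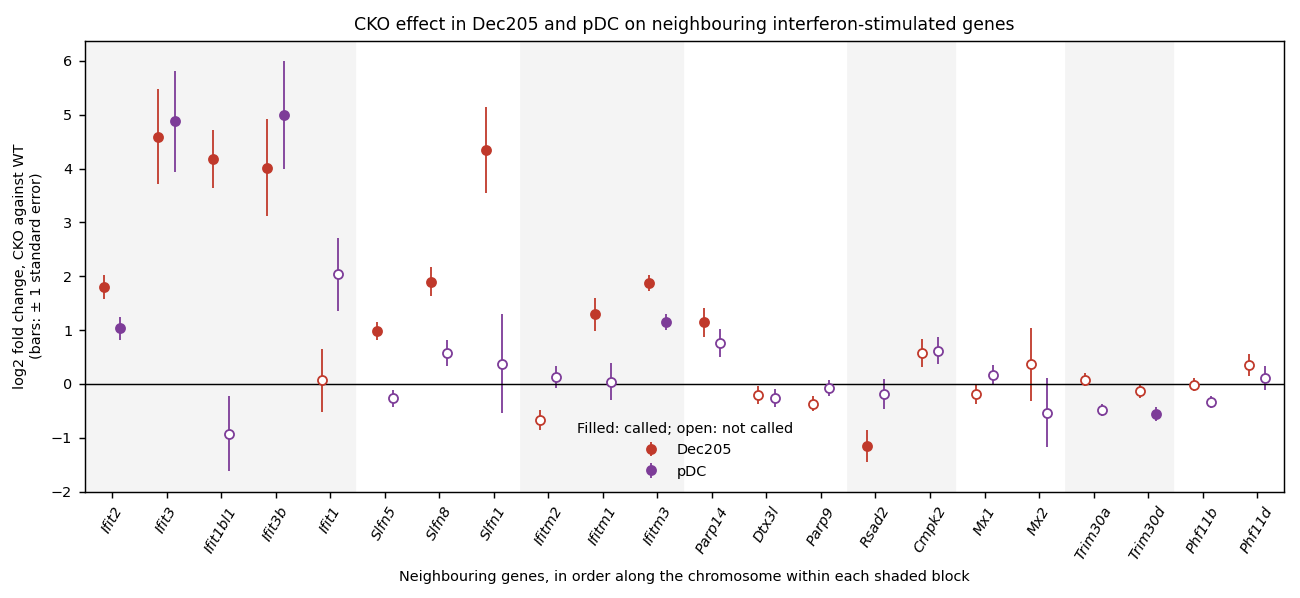
Log2 fold change of CKO against WT (vertical axis, bars ± 1 standard error, 2 libraries per group) in Dec205 (red) and pDC (purple) for interferon-stimulated genes that neighbour each other, in order along the chromosome within each shaded or white block. Filled points passed the test. In Dec205 they include 4 of 5 IFIT genes and all 3 Schlafen genes, while Ifit1, Ifitm2, Dtx3l and Parp9 are open beside filled neighbours, and Rsad2 lies below 0 beside Cmpk2.

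Whether CKO acted unequally on the subsets was tested for each gene. The joint test over the 4 subsets called 12 of the 44 members, where 2.44% of all tested genes were called. In order of adjusted p these were Ifitm3, Rtp4, Isg20, Usp18, Ifit1bl1, Xaf1, Ifi44, Ifit2, Ifit3, Slfn5, Ifi27l2a and Ifit3b. Between 7 and 14 members were called when 1 library was left out, and 7 without Esamhi WT replicate 2, Esamhi CKO replicate 1 or Esamhi CKO replicate 2. Since each of these comparisons uses the Dec205 libraries, the following counts are not independent of each other. The CKO effect was larger in Dec205 than in Esamhi for 12 members (0.921% of all tested genes) and smaller for 0 (0.986%, and 1.91% in all). Against Esamlo it was larger in 6, namely Ifit2, Ifit1bl1, Isg20, Rtp4, Xaf1 and Ifitm3 (0.718%), and smaller in 0 (0.812%, and 1.53% in all). Against pDC it was larger in Ifit1bl1, Ifi44, Isg20 and Slfn5 (0.972% of all tested genes) and smaller in Ddx58 (1.44%, and 2.41% in all).

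Rtp4 showed the largest difference between subsets, with a CKO effect in Dec205 that exceeded that in Esamhi by 6.02 (SE 0.71, edgeR adjusted p = 0.00091) and that in Esamlo by 5.53 (SE 0.72, adjusted p = 0.0022) on the log2 scale. For Ifi44 the difference from pDC was 3.96 (SE 0.57, adjusted p = 0.0032). Slfn5 rose in Dec205 and was not called in pDC, with 47.3 and 34.1 CPM in WT and 37.3 and 30.2 CPM in CKO pDC, and the effects in Dec205 and pDC differed by 1.25 (SE 0.23, adjusted p = 0.014). Averaged over the 4 subsets, 14 members rose and 1 fell, beside 3.92% and 1.89% of all tested genes (5.82% in all). The average effect was largest for Rtp4 (2.74, SE 0.24, edgeR adjusted p = 1.7e-05), Ifit3 (2.33, SE 0.40, 0.0041), Slfn1 (2.23, SE 0.39, 0.0046), Ifit3b (2.15, SE 0.42, 0.009) and Ifi44 (1.42, SE 0.21, 0.0015). The others that rose in the average were Xaf1, Ifit2, Ddx58, Slfn8, Isg20, Parp14, Samd9l, Ifitm3 and Ifitm1, with 0.85 to 0.59, and Trim30d fell by 0.27 (edgeR adjusted p = 0.027).

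**Figure D4:**
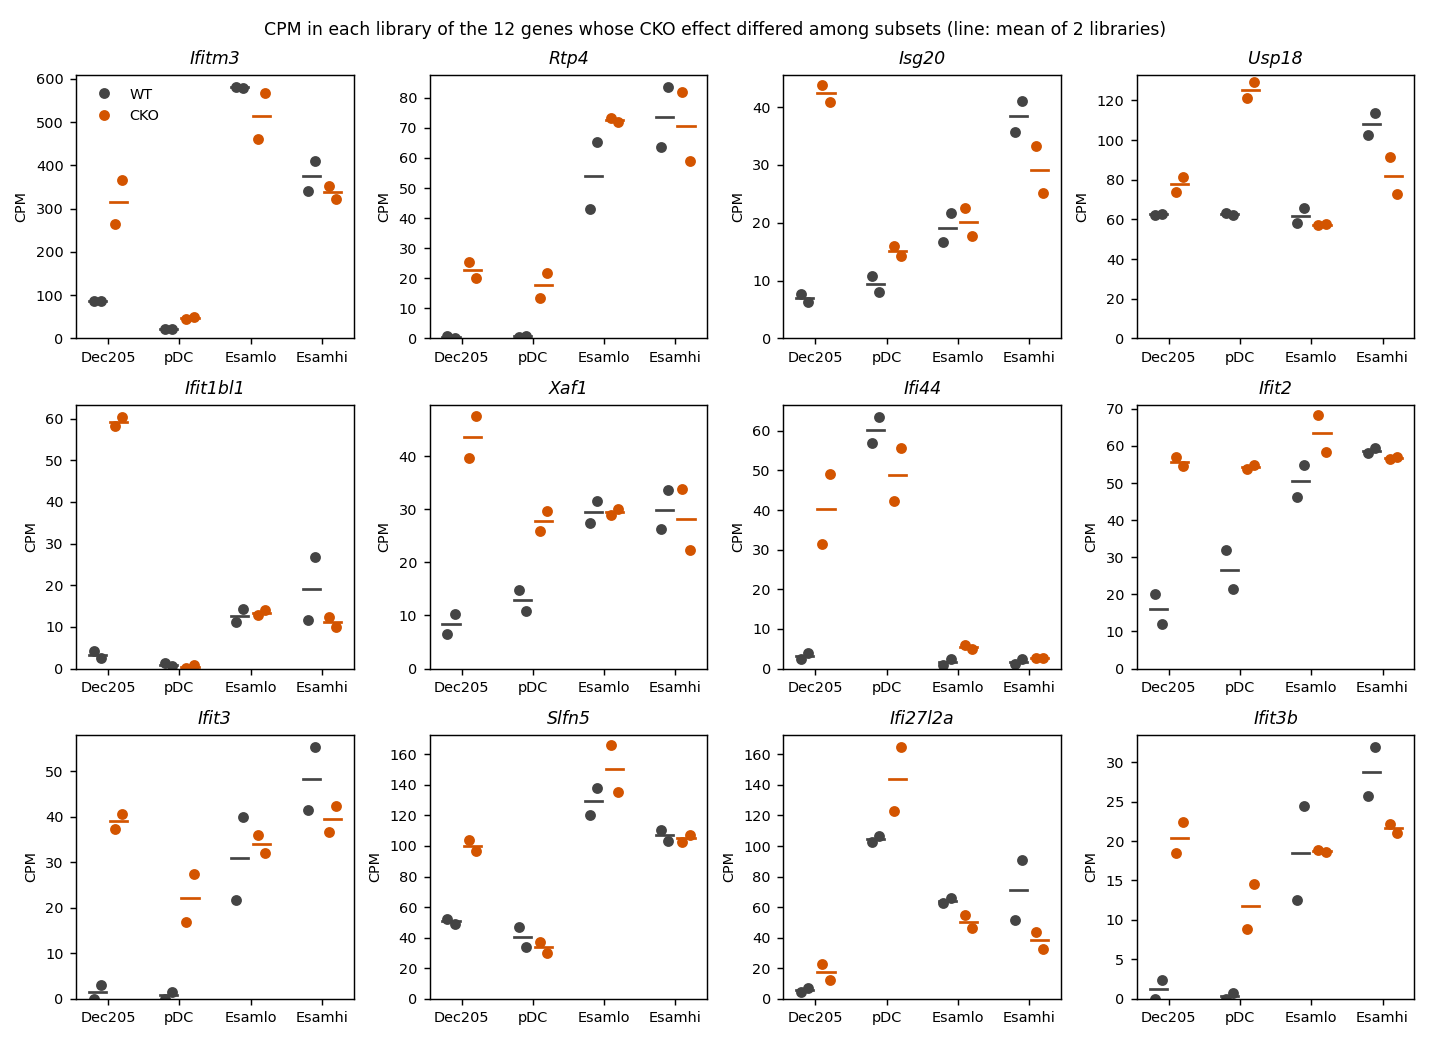
CPM (vertical axes, linear, starting at 0) in each library of the 12 genes whose CKO effect differed among the 4 subsets, with WT in grey, CKO in orange and a line at the mean of 2 libraries. In the Dec205 column all 12 genes have both CKO points above both WT points, with a small gap for Ifi27l2a and Usp18. For Usp18 the wide gap is in the pDC column. The Esamlo and Esamhi columns show close or overlapping points for most of the 12 genes.

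The ISRE letters were present in the 250-base upstream windows of 14 of the 36 members that have an entry in the RefSeq promoter table (38.9%), against 821 of 27025 windows of all genes (3.04%). Of the 13 members with a window that rose in Dec205, 6 held a match (46.2%): Ifit3, Ifit3b, Ifit1bl1, Stat2, Slfn5 and Slfn8. Of the 21 with a window that were not called there, 7 did (33.3%), among them Ifit1 and Isg15, and so did Rsad2, which fell. Members with and without these letters thus stood on both sides of the threshold. The GAS letters TTCNNNGAA, a motif of the interferon gamma response, were in 3 windows of members (8.33%, against 7.18% of all) and the ETS letters CGGAAG, a core bound by factors of the Etv6 family, in 3 (8.33%, against 13.8%). All motifs were sought on both strands. A match is a string of letters and no evidence of binding, and its absence holds for this window only.

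The genes that make, carry and limit the interferon signal were read from lists of other pathway genes. Of 20 interferon ligand genes 1, Ifng, passed the filter on low counts, and the summed level of all 20 was 0 to 2.01 CPM in the Dec205 and pDC libraries. Ifnb1 had no count in any Dec205 library. Of 9 receptor and kinase genes, the receptor chain Ifnar2 rose in Dec205 (90.6 and 64.3 CPM in WT, 117 and 116 CPM in CKO, log2 fold change 0.59, SE 0.14, edgeR adjusted p = 0.021). The interferon gamma receptor chain Ifngr2 and the shared cytokine receptor chain Il10rb fell there, by 0.36 (edgeR adjusted p = 0.020) and 0.55 (adjusted p = 0.0068) on the log2 scale. None of the 9 was called in pDC, Esamlo or Esamhi, and none of 6 feedback inhibitor genes such as Socs1 in any subset.

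Of 9 transcription factor genes of the pathway, 1 rose and 1 fell in Dec205. There, Irf7, which amplifies interferon production, rose from 176 and 160 CPM to 244 and 256 CPM (log2 fold change 0.57, SE 0.15, edgeR adjusted p = 0.036) and Irf1 fell from 502 and 548 CPM to 406 and 400 CPM (-0.38, SE 0.08, adjusted p = 0.017). Irf9 was not called in any subset. In Esamlo and Esamhi, where none of the 44 tested members was called, Irf1 rose from 257 and 239 CPM to 439 and 419 CPM (0.79, SE 0.08, edgeR adjusted p = 0.0006) and from 188 and 202 CPM to 377 and 339 CPM (0.88, SE 0.08, adjusted p = 0.00017). Irf8, a factor of dendritic cell development, rose in Esamhi by 0.80 (edgeR adjusted p = 0.0015). None of the 9 factors was called in pDC, where 8 members rose. Of 15 genes of nucleic acid sensing upstream of interferon, Tmem173, which encodes STING, rose in Dec205 (0.58, adjusted p = 0.027), while Tlr9 (-2.42, adjusted p = 0.029) and Traf3, an adaptor, (-0.91, adjusted p = 0.027) fell there, and 0 were called in the other subsets.

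Markers of other cell types moved with genotype in Dec205, beside the rise of the 16 members, and their part in that rise was not tested. The summed level of 10 B cell markers was 137 to 165 CPM in WT, 649 CPM in CKO replicate 1 and 363 CPM in CKO replicate 2, with 3 of 10 higher. Both CKO libraries were above both WT libraries in that sum, so leaving out CKO replicate 1 does not remove the difference. Markers of pDC summed to 236 to 257 CPM in WT and 317 to 447 CPM in CKO, with 5 of 10 higher, against at least 14229 CPM in the pDC libraries. Monocyte markers summed to 1399 to 1557 CPM in WT and 2923 to 3718 CPM in CKO, with 3 of 9 higher, 1 lower and most of the sum due to Plac8. NK cell markers summed to 73.7 to 87.4 CPM in WT and 157 CPM in each CKO library, with 3 or 4 of 6 at 0. Macrophage markers summed to 233 to 261 CPM in WT and 134 to 153 CPM in CKO, with 0 of 9 called, and the 6 erythroid and platelet markers in the table to 15.6 to 20.6 CPM in WT and 34.1 to 36.6 CPM in CKO, with 0 called. Of 8 T cell markers 1 was higher, of 8 cDC2 markers 2 were higher and 1 lower, and of 10 cDC1 markers 0 were called in Dec205. In pDC, where 8 members rose, 1 of 8 cDC2 markers was higher, Itgam, at 4.01 and 5.18 CPM in WT and 31.1 and 25.4 CPM in CKO, and no marker of B cells, T cells, NK cells, monocytes, macrophages or neutrophils was called. Sums also moved with genotype where no member was called. In Esamlo, B cell markers summed to 212 to 293 CPM in WT and 321 to 779 CPM in CKO. Monocyte and macrophage sums overlapped there. In Esamhi, monocyte markers summed to 909 to 927 CPM in WT and 1698 to 1863 CPM in CKO. Neutrophil markers there summed to 19.9 to 28.2 CPM in WT and 84.2 to 92.5 CPM in CKO. The Esamhi T cell sums were lower in CKO and the macrophage sums overlapped.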

How the data were processed

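RNA-seq counts of 16 spleen dendritic cell libraries were used, 2 for each of 4 subsets and 2 genotypes, grouped by GEO's labels. The authors deposited raw counts, whole numbers of reads per gene, in 1 table of 24116 genes. Per the labels' protocols, libraries came from the SMART-seq v4 low-input kit, which amplifies cDNA by PCR. Per the submitters' processing notes, tools were bcl2fastq, Trimmomatic 0.36 and Bowtie2 2.2.9, with build mm10. The counting tool was not given in the sources used here, nor were its gene models, its strand setting or its handling of reads with several matches.

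Totals were 14434287 to 20709265 counts per library. The floors given cover counting error only. Replicates differed by 12.0 to 30.2 times the sampling noise per gene (chi-square, 1 for sampling noise alone), so none was treated as a copy. Counts were filtered with filterByExpr on the 8 groups (13790 genes kept), scaled by TMM and tested two-sided with edgeR 4.0.16 under R 4.3.3 (robust glmQLFit after estimateDisp), with 1 coefficient per group, no covariate and 8 residual degrees of freedom shared by all libraries. A gene was called at a Benjamini-Hochberg adjusted p under 0.05 over all tested genes. CPM used TMM-scaled totals. RPKM divided CPM by the exon length of GENCODE genes (GRCm38, the assembly of mm10). The printed gene positions come from RefSeq. Shared sequence is the share of 50-base stretches of a gene's longest protein-coding transcript that occur in transcripts of another gene. Upstream sequences come from RefSeq (GRCm38.p6), which matched 36 of 45 members by gene identifier.

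In counts simulated for the Dec205 comparison on 13499 genes, 62% of 100 genes changed 2-fold and 84% of 100 changed 4-fold were recovered, and 3.95% of calls were false. The changed genes were drawn from those above a minimum mean level over all libraries, so these rates do not cover genes at low levels. Each simulated gene had the same spread in all groups. In the data, replicates differed by 23.2 (WT) and 30.2 (CKO) times the sampling noise in Dec205. In Esamhi they differed by 13.2 and 12.0 times. The rates therefore do not cover unequal spread between groups. Full values are given for members called in a subset, in the average or in the joint test; other members are summarised, except those with extreme WT levels, and those named just outside the threshold or as neighbours that were not called were chosen after their values were seen. Some genes of the pathway and marker lists are not reported here. Members, lists and the naming rule were chosen with earlier results of these data known. Alternatives were DESeq2 1.42.0, its size factors, library size only, no filter, a block for the replicate number, each subset alone, and each library left out.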

Additional observations from a re-analysis of the deposited data

Results flagged for a closer look

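The CKO effect of 12 interferon-stimulated genes differed among the 4 subsets in a joint edgeR quasi-likelihood test with 3 degrees of freedom, adjusted over all tested genes. The adjusted p of each is given with the log2 fold changes in Dec205, pDC, Esamlo and Esamhi, in this order. Ifitm3 had an adjusted p of 0.00045 with 1.87, 1.15, -0.18 and -0.15. Rtp4 had 0.00082 with 5.95, 4.63, 0.43 and -0.06. For Isg20 the adjusted p was 0.0018, with 2.60, 0.69, 0.07 and -0.40. That of Ifit1bl1 was 0.0062, with 4.18, -0.92, 0.09 and -0.77. Xaf1 followed at 0.0067, with 2.38, 1.11, -0.0027 and -0.09, and Ifi44 at 0.0098, with 3.65, -0.30, 1.72 and 0.61. Ifit2 was at 0.0207, with 1.80, 1.03, 0.33 and -0.05. The neighbours Ifit3 and Ifit3b, which share sequence, were at 0.0313 and 0.046, with 4.59 and 4.02 in Dec205, 4.88 and 4.99 in pDC, 0.14 and 0.02 in Esamlo, and -0.29 and -0.42 in Esamhi. Slfn5 was at 0.0376, with 0.98, -0.27, 0.22 and -0.03, and Ifi27l2a at 0.0383, with 1.58, 0.46, -0.35 and -0.90.

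Usp18, with an adjusted p of 0.0039, had its largest value in pDC, 1.00, beside 0.31 in Dec205, -0.11 in Esamlo and -0.40 in Esamhi.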

How the results depend on the processing

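Of 244 values under alternative settings for the 17 counts of members, 198 stayed within 1.5 times the count reported, and none of the 26 single calls turned its direction. In Dec205, 1 member was lower, but 2 with DESeq2 size factors, library size only, the replicate block or DESeq2, the other being Ifitm2, and 0 with the subset's own libraries, where 6 rather than 16 were higher. In pDC, 5 rather than 8 were higher with the subset's own libraries, and 1 was lower, but 2 with DESeq2 size factors, 4 with DESeq2 and 0 with a replicate block within genotype. In Esamlo, 0 were higher, but 1 with DESeq2 and with the replicate block within genotype (Ifi44) and 1 with its own libraries (Slfn1). In Esamhi it was 2 with its own libraries (Slfn1 and Ifitm1). In the average, 1 was lower, but 2 with DESeq2 size factors, library size only, no filter or the replicate block, 4 with DESeq2 and 0 with the block within genotype. Between Esamlo and Esamhi in WT, 10 rather than 6 differed when their libraries were fitted alone. The fits on the libraries compared have fewer residual degrees of freedom and take the spread from those libraries only. The cause of these and the other changes was not tested.

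With 1 library left out, where the lone library is assumed to vary like the others, 15 to 16 members were higher and 0 to 1 lower in Dec205 (0 lower without WT replicate 2 or CKO replicate 1). These were not all the same genes: 13 to 15 of the 16 were shared. There were 5 to 7 higher, 5 to 7 of them shared with the 8, and 0 to 1 lower in pDC (5 higher without CKO replicate 2, and 0 lower without WT replicate 1, WT replicate 2 or CKO replicate 1). In Esamlo and Esamhi 0 were called in any of these fits. In the average 13 to 16 were higher and 0 to 2 lower, and 7 to 14 differed among subsets. The WT comparisons gave 21 to 27 (Dec205 and pDC), 28 to 32 (Dec205 and Esamlo), 28 to 34 (Dec205 and Esamhi), 30 to 34 (pDC and Esamlo), 33 to 37 (pDC and Esamhi) and 1 to 5 (Esamlo and Esamhi, 1 without Esamlo WT replicate 1).

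Deviations of same-numbered WT and CKO libraries correlated at -0.07 to 0.02 in the 4 subsets. Those of subsets within a genotype correlated at 0.01 to 0.12, all 12 above 0. These values are small, and whether same-numbered subsets of a genotype share an animal or a batch cannot be decided from them. The replicate block kept 25 of 26 calls and lost Trim30d in pDC (edgeR adjusted p = 0.058), and the block within genotype kept 23 and lost Rsad2 in Dec205 (0.0646) and Ifit2 (0.0923) and Trim30d (0.193) in pDC. The block within genotype also called Zbp1 higher in Dec205 (0.0135). With 2 libraries per group, calls near the threshold depended on single libraries.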
